A study of Mus musculus with 33 samples.

Results

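This account covers 38 genes for collagens and other structural or assembly proteins of the extracellular matrix, chosen by name from a list of mouse symbols and followed through 33 RNA libraries of mouse ovary. All 38 were found among the 54347 gene identifiers of the deposited table, and all 38 passed the filter on low counts in each of the 3 experiments. Experiment 1 held 3 libraries each labelled WT, Fshb(+/-) (Het below) and Fshb(-/-) (KO). Experiment 2 had 4 KO libraries and 4 with the genotype label Fshb(-/-) HFSHB, read here as the null genotype carrying a transgene for FSHB ("rescue" below). Experiment 3 held 4 libraries at each of the estrus stages labelled DE, PE and E, with genotype label WT, and 4 whose stage label reads KO (anestrus) although their genotype label also reads WT. The labels of experiments 1 and 2 give no stage, and no label gives age, strain, the promoter of the transgene, or whether replicates are different animals. The p-values therefore measure only the spread between these samples, part of which may be technical.

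The ovarian matrix is made by stromal, theca, vascular and surface cells and, around each follicle, in part by granulosa cells. Fibrillar collagens give the stroma its strength, type IV collagen and nidogen form the basement membranes of follicles and vessels, and proteoglycans, fibulins and cross-linking enzymes set how fibrils are built. Glycoproteins such as fibronectin bind cells to this scaffold, and the matrix is remodelled as follicles grow, rupture and turn into corpora lutea. FSH, the pituitary hormone whose specific subunit Fshb encodes, acts on granulosa cells.

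Total counts ran from 13.6 M to 16.9 M per library in experiment 1, from 19.6 M to 23.7 M in experiment 2 and from 10.1 M to 15.9 M in experiment 3. The targeted gene went against the labels: Fshb had 0 to 1 counts in the WT libraries of experiment 1 and 68 to 82, 119 to 184 and 90 to 114 in the KO-labelled libraries of experiments 1, 2 and 3. Het had 43 to 106, the rescue 221 to 431, DE 60 to 198, PE 0 to 51 and E 0 to 170, so that in experiment 3 KO overlapped DE and E. Every direction below therefore rests on labels, and "KO" means the library labelled so. All 11 listed markers of oviduct epithelium passed the filter on low counts in experiment 3, and their summed level split its libraries: 3396 to 7716 CPM (read counts scaled to library size) in 3 of 4 DE, 4 of 4 PE and 1 of 4 E libraries, and 20.7 to 88.7 CPM in DE replicate 3, in E replicates 1, 2 and 4 and in the KO libraries. Outside experiment 3, Het replicate 3 (1442 CPM), KO replicates 3 (408) and 4 (183) of experiment 2 and rescue replicate 2 (575) were above 100 CPM. Markers of oocytes (summed level 116 to 949 CPM) and granulosa cells (1056 to 4719 CPM) were present in every library.

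Between 44% and 49.8% of the CPM of the 38 genes came from 5 genes in each group, and the sum over all 38 was 12582 ± 686 CPM in WT and 12691 ± 458 CPM in KO of experiment 1 (SD, n = 3 each). The same sum was 16559 ± 2756 CPM in Het. It was 10533 ± 456 CPM in KO and 11494 ± 967 CPM in the rescue (n = 4 each), and in experiment 3 13023 ± 1025 CPM in KO, 17669.9 ± 3826 in DE, 16237 ± 2865 in PE and 15836 ± 3592 in E (n = 4 each). Per kilobase of exon, Sparc, a collagen-binding glycoprotein, stood highest in all 3 experiments, with means of 464, 431 and 516 CPM per kb. Next on this scale came the basement membrane collagen Col4a1 (176 CPM per kb) in experiment 1, the small proteoglycan Ogn (163) in experiment 2 and the fibrillar collagen Col3a1 (200.2) in experiment 3.

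Over the 6 comparisons of another group with KO, 16 of the 38 genes were lower in KO in at least 1, 7 were higher in KO in at least 1, none was called in both directions and 15 were called in none. Of the 15929 genes tested in all 3 experiments, 27.9% were lower in KO in at least 1, 27.6% were higher in at least 1 and 45.1% were called in none; for the 38 these shares were 42.1%, 18.4% and 39.5%. Lum, Fn1 and Thbs2 were lower in KO in all 6 (7.89% of the 38, against 1.5% of all genes). Col5a2, Col14a1, Fbln2, Tnc and Loxl2 were lower in 5 (13.2%, against 1.98%). Comparisons within an experiment share their KO libraries, so their counts are not independent of each other. The 38 were chosen with earlier results of these data known, so their shares are a description and not a test against all genes. In bulk RNA, fewer cells of a type and less RNA per cell cannot be told apart.

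**Figure D1:**
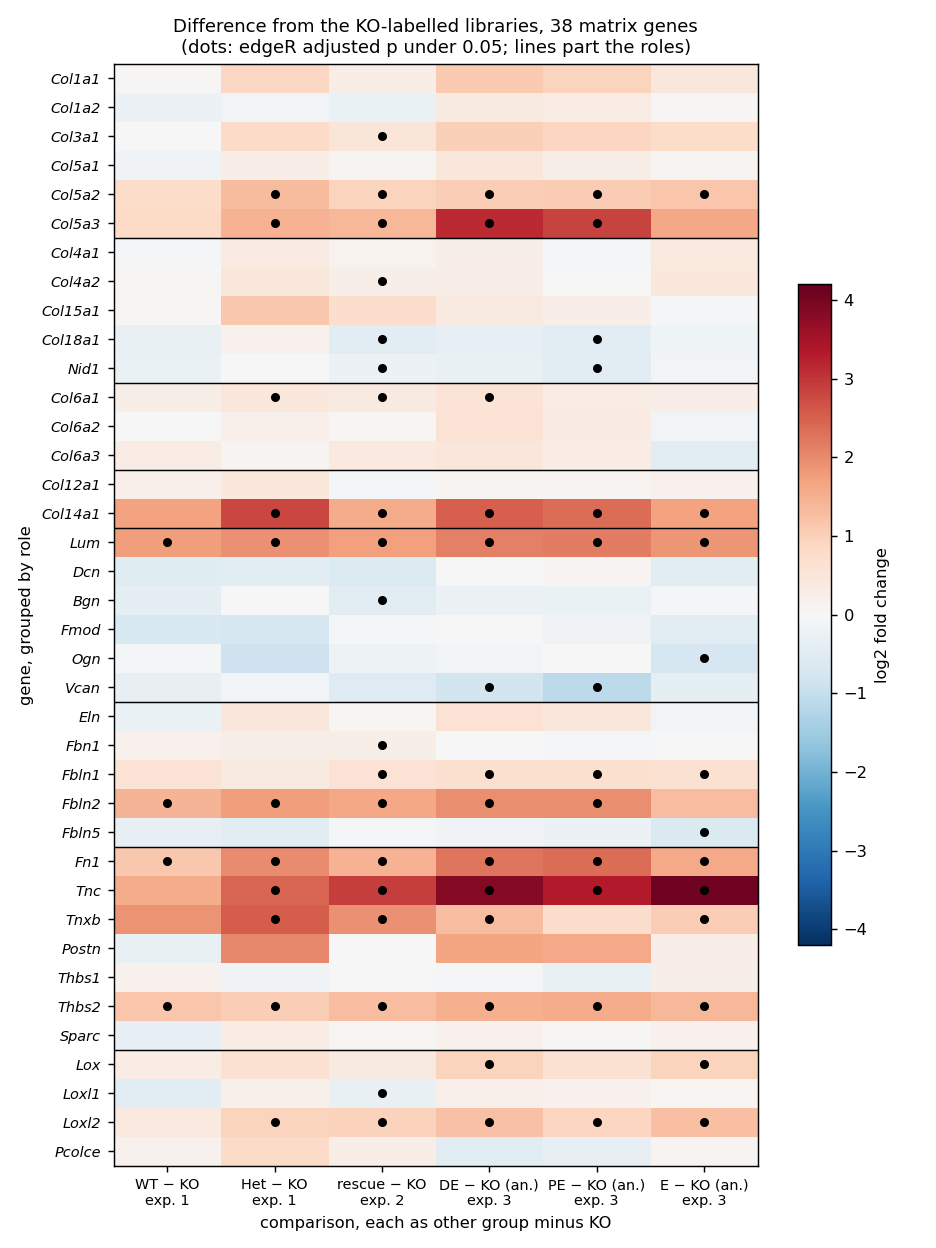
The 38 genes (one per line, grouped by role) in 6 comparisons, coloured by the log2 fold change of the other group minus KO, with a dot where the edgeR adjusted p was under 0.05. Lum, Fn1 and Thbs2 carry a dot in all 6 columns, and the colours of Tnc reach 4.10 in E minus KO; columns of one experiment share KO libraries.

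In experiment 1, the first question was which matrix transcripts differ between KO and WT ovaries. Of the 38 genes 4 were lower in KO and 0 higher, against 3.34% lower and 4.53% higher of the 17223 genes tested. The median log2 fold change over the 38 was -0.05, and over all genes it was -0.01. At an unadjusted p under 0.05, 10 of the 38 were lower and 2 higher, with 25.1% of all genes under it, and DESeq2 called 7 lower and 1 higher, with 6.63% of all genes lower and 7.1% higher. The 4 genes were a collagen-binding proteoglycan, a fibulin, an adhesive glycoprotein and a matricellular one.

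Lum encodes lumican, a small leucine-rich proteoglycan that binds collagen fibrils (GRCm38 chromosome 10, 97565128 to 97572703). It was at 104, 96.5 and 119 CPM in WT, at 163, 102 and 93.3 CPM in Het, and at 24.8, 35 and 34.6 CPM in KO. All KO libraries lay below all others, and WT and Het overlapped. KO minus WT was -1.76 ± 0.23 (log2, SE; edgeR adjusted p = 0.0036), and KO minus Het was -1.92 (adjusted p = 0.0012). Dcn, the related proteoglycan decorin, was not called, at 163 to 505 CPM in WT and 321 to 529 in KO. The ratio of Lum to Dcn within a library ran from 0.0654 to 0.116 over all KO libraries of the 3 experiments and from 0.232 to 0.627 over all others.

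Fbln2 encodes fibulin 2, a glycoprotein of elastic fibres and basement membranes (chromosome 6, 91212455 to 91272540). Its values were 60.8, 55.8 and 43.6 CPM in WT, 47.2, 76.6 and 80.3 in Het and 19.8, 16.3 and 23.4 in KO. KO again stood below every other library. The log2 fold change was -1.43 ± 0.23 against WT (edgeR adjusted p = 0.0084) and -1.77 against Het (adjusted p = 0.0017).

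Fn1 encodes fibronectin, the cell-binding glycoprotein on which other matrix proteins assemble (chromosome 1, 71585520 to 71653200). It was at 221, 259.8 and 215 CPM in WT, at 438, 406 and 444 in Het, and at 113, 83.3 and 124 in KO. The 3 groups did not overlap, with Het above WT and WT above KO. KO minus WT was -1.12 ± 0.15 (edgeR adjusted p = 0.0043) and KO was 4.01-fold lower than Het (adjusted p = 0.00026). Het minus WT, at 0.89 ± 0.15, did not pass over all genes (unadjusted p = 0.00023, edgeR adjusted p = 0.14).

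Thbs2 encodes thrombospondin 2, a matricellular protein known to restrain blood vessel growth (chromosome 17, 14665500 to 14694235). It was at 47.8, 46.2 and 37.1 CPM in WT, at 40.9, 40.3 and 39 in Het, and at 19.8, 18.1 and 21 in KO. WT and Het overlapped, and KO lay apart below both. KO minus WT was -1.15 ± 0.12 (edgeR adjusted p = 0.0015), and KO minus Het -1.03 ± 0.12 (adjusted p = 0.0011). Its relative Thbs1 was not called, at 769.6 to 1019 CPM in WT and 591 to 952 in KO. Endothelium markers (7 genes, 1 higher and 3 lower in KO) summed to 325 to 391 CPM in KO and 451 to 515 in WT, and oocyte markers (7 of 7 higher in KO) to 581 to 749.9 and 307 to 382; their part in the results was not tested.

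**Figure D2:**
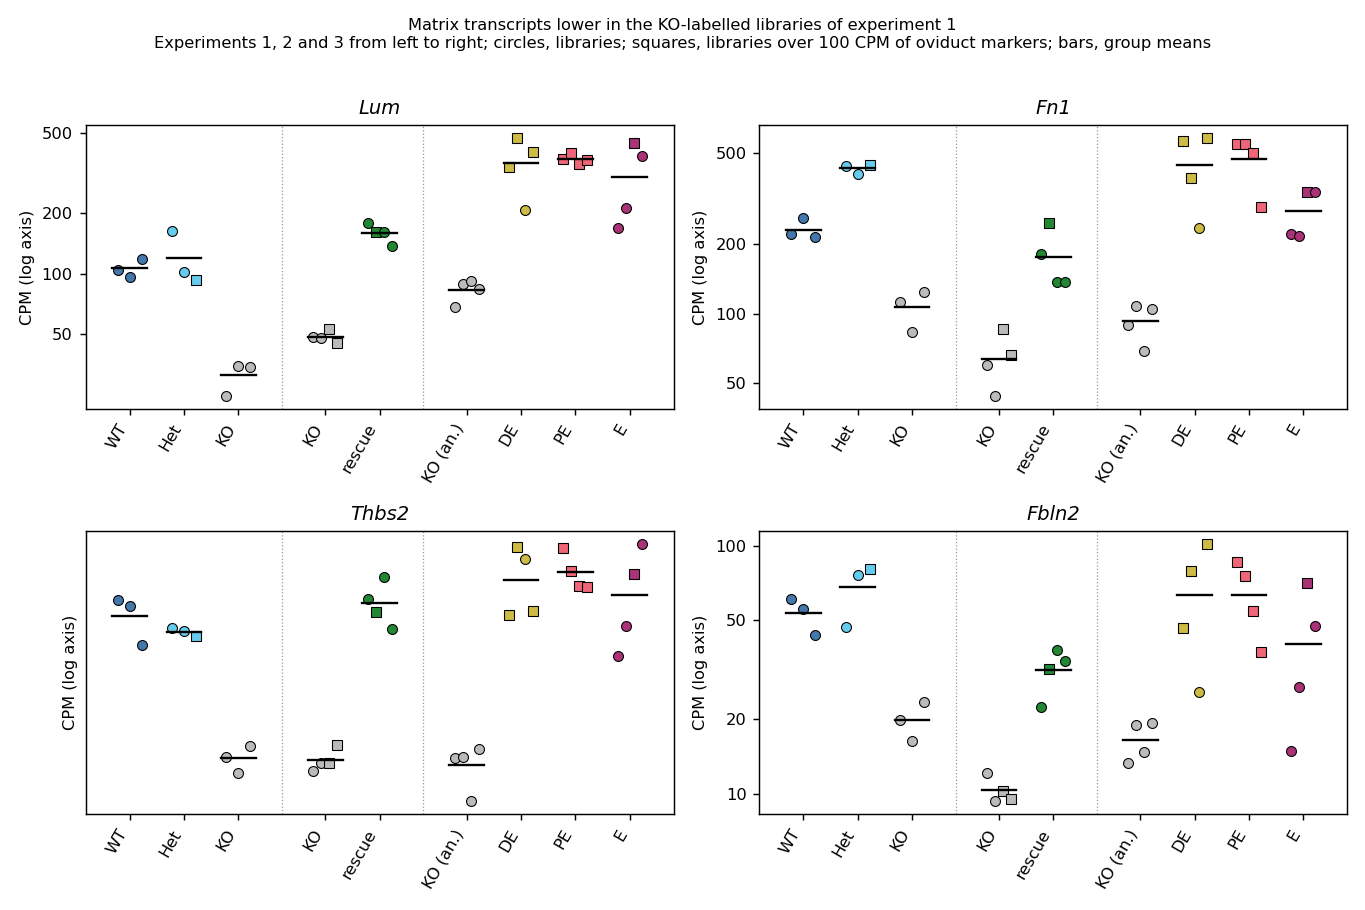
Level of Lum, Fn1, Thbs2 and Fbln2 in each of the 33 libraries (CPM, log axis) by group and experiment; circles are libraries, squares libraries over 100 CPM of oviduct markers, and bars group means. KO libraries of Lum lie between 24.8 and 91.7 CPM, and the highest KO library of each gene is below the lowest other library of its experiment, except Fbln2 in E.

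Against Het, 11 of the 38 genes were lower in KO and 0 higher, with 7.9% lower and 9.1% higher of all genes tested. The median of the 38 was -0.44, against -0.02 over all genes. Besides Lum, Fbln2, Fn1 and Thbs2, these were the minor fibrillar collagens Col5a2 and Col5a3, the collagen VI chain Col6a1, the fibril-associated Col14a1, the tenascins Tnc and Tnxb, and Loxl2, an enzyme that cross-links collagen. Col6a1 was the smallest of them, at 783, 889.5 and 809 CPM in Het and 578, 640.4 and 619.7 in KO (-0.43 ± 0.11, edgeR adjusted p = 0.026). Col14a1 was at 9.24, 15.8 and 31.4 CPM in Het and 2.06, 1.69 and 4.18 in KO, so that Het replicate 3, the library with 1442 CPM of oviduct markers, was highest. Its log2 fold change was -2.82 ± 0.56 (edgeR adjusted p = 0.012) and -2.23 without that library. The count of 11 was 4 without KO replicate 1, 6 without KO replicate 2 and 19 without Het replicate 3. Over all genes, 2.84%, 3.98% and 6.11% were then lower in KO and 4.87%, 6.7% and 7.1% higher. Without KO replicate 1 the genes beyond Lum, Fbln2, Fn1 and Thbs2 all lost their calls, Tnxb with an edgeR adjusted p of 0.054, and over all single libraries left out the adjusted p of these 7 genes reached 0.099.

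Between Het and WT no gene of the 38 passed in edgeR, where 0.0871% of genes were called higher and 0% lower. The median of the 38 was nevertheless 0.40, with 31 of 38 above 0, against a median of 0.00 over all genes, of which 49.9% were above 0. At an unadjusted p under 0.05 there were 13 higher and 1 lower, with 10.4% of all genes under it, and DESeq2 called 3 higher, with 1.03% of all genes higher and 1.06% lower. Col1a1, the main chain of type I collagen, was at 1544, 785 and 703 CPM in Het and 566, 587 and 552 in WT, so that Het replicate 1 was far above the others (0.83 ± 0.27, edgeR adjusted p = 0.37). Postn, a matricellular protein of connective tissue, reached 104 CPM in Het replicate 3 alone, with 13.8 and 14.4 CPM in the other Het libraries and 8.16 to 9.03 in WT. Loxl1, a cross-linking enzyme of elastic fibres, was at 114, 113 and 95.1 CPM in Het and 61.9, 77.6 and 66.7 in WT (0.64 ± 0.11, edgeR adjusted p = 0.14).

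RefSeq promoter windows on GRCm38.p6 were found for 26 of the 38 genes by symbol and not for 12. Printed here, 5' to 3' on the strand of the gene, are the 250 bases before the start of Thbs2, which of the 3 genes called in all 6 comparisons is the one with a window, and of Tnc, Tnxb and Fbln1, picked from the genes called in at least 4. Fbln2 and Col5a3, also called in at least 4, have windows that are not printed. The printed windows lie at chr17:14694263-14694512 (minus strand), chr4:64047016-64047265 (minus), chr17:34670285-34670534 (plus) and chr15:85205699-85205948 (plus). Capitals mark matches, on either strand, to the TATA box spelled TATAAA, to the box named for its letters CCAAT, to the GC box spelled GGGCGG, to the AP-1 site spelled TGANTCA and to the SMAD element spelled CAGAC.
Thbs2: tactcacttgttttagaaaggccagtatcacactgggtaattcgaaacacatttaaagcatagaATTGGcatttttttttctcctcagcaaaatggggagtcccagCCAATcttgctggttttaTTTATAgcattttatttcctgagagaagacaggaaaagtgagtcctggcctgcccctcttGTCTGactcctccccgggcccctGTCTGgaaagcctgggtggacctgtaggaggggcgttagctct
Tnc: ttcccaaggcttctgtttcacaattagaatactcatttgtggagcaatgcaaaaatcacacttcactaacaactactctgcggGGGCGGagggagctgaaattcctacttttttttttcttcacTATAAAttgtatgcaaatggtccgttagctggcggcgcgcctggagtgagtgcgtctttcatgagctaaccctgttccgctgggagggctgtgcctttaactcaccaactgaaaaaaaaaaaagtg
Tnxb: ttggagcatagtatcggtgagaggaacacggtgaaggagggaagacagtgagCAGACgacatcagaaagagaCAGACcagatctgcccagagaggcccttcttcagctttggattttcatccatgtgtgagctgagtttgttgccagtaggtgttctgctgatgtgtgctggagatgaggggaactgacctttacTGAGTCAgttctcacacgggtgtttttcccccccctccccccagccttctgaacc
Fbln1: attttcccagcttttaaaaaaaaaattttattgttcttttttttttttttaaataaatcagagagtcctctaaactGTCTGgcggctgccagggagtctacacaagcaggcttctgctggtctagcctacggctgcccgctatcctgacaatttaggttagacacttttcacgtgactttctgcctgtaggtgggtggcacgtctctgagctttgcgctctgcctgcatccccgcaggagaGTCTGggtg
The 4 printed windows share no one motif. The Tnc window holds TATAAA 126 to 121 bases before the start and GGGCGG 167 to 162 bases before it. The Thbs2 window holds CCAAT on both strands and TATAAA on the reverse strand, and the Thbs2, Tnxb and Fbln1 windows each hold CAGAC in 2 places. Tnxb alone of the 4 holds TGANTCA, 55 to 49 bases before its start. Among the 26 genes, CAGAC was in 42.3% and CCAAT in 34.6% of windows, against 42.1% and 34.5% of 27025 promoters of the same length. TATAAA was in 15.4% against 13%, TGANTCA in 7.7% against 6.87% and GGGCGG in 53.8% against 32.9%. The median GC content was 58.8% over the 26 and 52% over all promoters. A match is a description of the letters and not a binding site.

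Experiment 2 compared the rescue with KO in libraries of its own. Of the 38 genes 15 were higher in the rescue and 4 lower, with 15.8% higher and 16.2% lower of the 16871 genes tested. The median of the 38 was 0.25, against 0.00 over all genes. Cell markers moved with this comparison. Luteal markers (5 of 5 higher) summed to 316 to 578 CPM in KO and 1797 to 6068 in the rescue, oocyte markers (7 of 7 lower) to 611 to 949 and 281 to 414, endothelium markers (6 of 7 higher, 1 lower) to 299 to 332 and 369 to 519.5, and erythrocyte markers (5 of 5 higher) to 132 to 199 and 330.3 to 829. Smooth muscle and pericyte markers summed to 958 to 1282 CPM in KO and 1318 to 1642 in the rescue. Of these, Rgs5, Cnn1, Actg2, Tagln and Myh11 were called higher in the rescue, and Acta2 and Des were not called. Surface epithelium markers summed to 189 to 255 and 116 to 174 CPM, with Krt8, Krt18, Krt19 and Upk3b called lower and Lhx9 and Msln not called. The part of these cell markers in the values below was not tested. By role, 4 of 7 adhesive and matricellular glycoproteins, 3 of 6 fibrillar collagens and 3 of 5 elastic fibre genes were higher, and none of these 3 groups had a lower member. Basement membrane genes went both ways, with Col4a2 higher and Col18a1 and Nid1 lower.

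Tnc, which encodes tenascin C, a glycoprotein of tissues under repair or remodelling (chromosome 4, 63959785 to 64047015), showed the largest difference among the 38. It was at 24.4, 20.7, 47 and 41.4 CPM in KO and at 286, 371, 157 and 186 CPM in the rescue, without overlap. The log2 fold change was 2.91 ± 0.39 (edgeR adjusted p = 0.0018). Tnxb, which encodes tenascin X, a glycoprotein that stabilises collagen networks, was at 28.4, 29.8, 24.4 and 23.3 CPM in KO and 66.4, 101, 123 and 111 in the rescue. Here too every rescue library was above every KO library (1.92 ± 0.19, edgeR adjusted p = 0.00026).

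Lum was at 48.6, 48, 53.1 and 45.5 CPM in KO and at 179, 162, 161 and 137 in the rescue. This was the difference with the smallest adjusted p among the 38 (1.71 ± 0.08, edgeR adjusted p = 5.6e-06). Thbs2 was at 18.3, 19.1, 19.1 and 21.1 CPM in KO and 48, 44.7, 54.6 and 40.6 in the rescue, a clear gap between groups (1.28 ± 0.09, edgeR adjusted p = 3.1e-05). Fbln2 was at 12.1, 9.32, 10.3 and 9.53 CPM in KO and 22.3, 31.8, 38.1 and 34.4 in the rescue. Its groups stood apart as well (1.62 ± 0.16, edgeR adjusted p = 0.00017). Fn1 was at 59.8, 44.1, 86 and 66 CPM in KO and 181, 249, 137 and 137 in the rescue, without overlap (1.46 ± 0.26, edgeR adjusted p = 0.0054).

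Fbln1, which encodes the elastic fibre and basement membrane protein fibulin 1, differed little but evenly, from 95.6, 90.5, 94.3 and 92 CPM in KO to 152, 141, 131 and 146 in the rescue. Neither group varied by as much as the gap between them (0.61 ± 0.05, edgeR adjusted p = 5.4e-05). Col14a1, a collagen that binds to the surface of fibrils, rose by 1.56 ± 0.29 (edgeR adjusted p = 0.004), and Loxl2 by 0.97 ± 0.19 (adjusted p = 0.0072). The remaining rises (log2) were 0.25 each for Col4a2 and for fibrillin 1 (Fbn1), 0.37 for Col6a1, 0.50 for Col3a1, 0.94 for Col5a2 and 1.39 for Col5a3, whose groups overlapped. The calls of Col3a1, Col5a3, Fbn1 and Nid1 each ended without any 1 of at least 3 single libraries, always including KO replicate 4, with an edgeR adjusted p of up to 0.058, 0.091, 0.068 and 0.054.

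The 4 lower in the rescue were small changes. Bgn, the small proteoglycan biglycan, was at 585, 551, 536 and 590.0 CPM in KO and 451, 448, 388 and 376 in the rescue (-0.44 ± 0.07, edgeR adjusted p = 0.0017). Col18a1, the basement membrane collagen that is the source of endostatin, was at 175, 213, 171 and 176 CPM in KO and 119.5, 136, 138 and 136 in the rescue (-0.47 ± 0.08, edgeR adjusted p = 0.0023). The groups of both genes stood apart. Nid1, which links laminin to collagen IV, fell by 0.24, and Loxl1 by 0.31.

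The rescue libraries were themselves uneven. Col1a1 was at 427 and 461 CPM in replicates 1 and 2 and at 284 and 264 in replicates 3 and 4. Col5a2, Col15a1 and the cross-linking enzyme gene Lox fell into the same pairs, with Col15a1, a basement membrane collagen, at 153 and 174 against 78.4 and 71.5 CPM. Pcolce, which enhances procollagen processing, was the other way round, at 194 and 204 against 425 and 469.6 CPM. Theca and interstitial markers (6 genes) summed to 4247 and 4516 CPM in replicates 1 and 2 and 10089 and 11335 in 3 and 4. These markers went both ways between the rescue and KO. Insl3 (-6.03), Cyp17a1 (-2.16), Ptch1 (-0.82) and Gli1 (-0.42) were lower in the rescue and Hsd3b1 (1.54) higher. Star (2.96, edgeR adjusted p = 0.052) was not called. Luteal markers split the same replicates, at 1797 and 2468 against 4908 and 6068 CPM. The part of either list in these levels was not tested. KO replicates 3 and 4 and rescue replicate 2 exceeded 100 CPM of oviduct markers. Without these 3 libraries 10 of the 38 genes were called, Lum, Fbln1, Fbln2, Fn1, Tnc, Tnxb and Thbs2 higher and Col18a1, Bgn and Loxl1 lower, with Lum at 1.72 and Tnc at 3.22. Calls over all genes fell as well, to 6.1% higher and 8.27% lower. Of the 9 calls lost, Col5a2 (0.92), Col14a1 (1.67), Loxl2 (0.93), Fbn1 (0.25), Col4a2 (0.27) and Nid1 (-0.27) kept log2 fold changes close to those above, and Col3a1 (0.33), Col5a3 (0.91) and Col6a1 (0.24) were smaller.

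The fold changes of both experiments, which share no library, were set side by side. All 4 genes lower in KO than in WT were higher in the rescue than in KO, which is 100% of the 4 and 26.7% of the 15. Over all genes tested in both, 82.6% of those lower in KO were higher in the rescue, or 17.6% of the latter. Of the 38 genes, 31 moved in the same direction in WT and rescue against KO (81.6%; 76.5% of all genes), with Pearson r = 0.93 and Spearman rho = 0.9 across the 38 genes, which are not independent replicates. Of all genes tested, r was 0.74 and rho 0.7. The test of the difference itself, rescue minus KO against WT minus KO, called none of the 38, with 0.0493% of genes called higher and 0.104% lower. None of the 38 reached an unadjusted p under 0.05 in edgeR, where 1213 of all genes did, and DESeq2 called 0. The difference was -0.06 ± 0.24 for Lum, 0.11 ± 0.15 for Thbs2, 0.18 ± 0.29 for Fbln2, 0.34 ± 0.32 for Fn1 and 1.33 ± 0.69 for Tnc (edgeR adjusted p = 0.8). A p above the threshold does not show that both changes were equal.

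**Figure D3:**
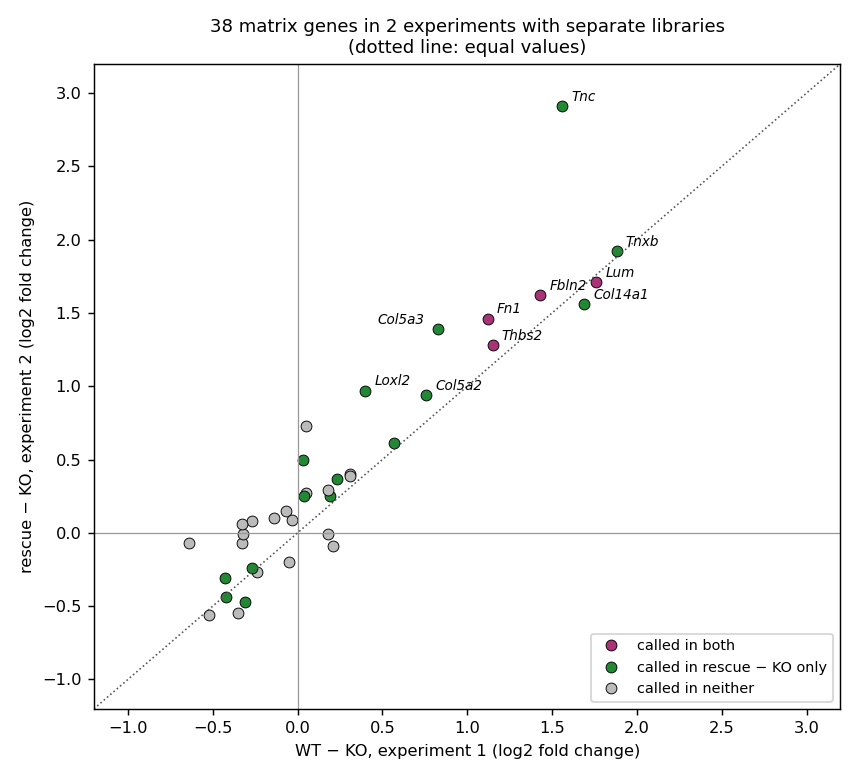
Each point is 1 of the 38 genes, with the log2 fold change of WT minus KO in experiment 1 on the horizontal axis and of rescue minus KO in experiment 2 on the vertical axis; purple points were called in both, green in the rescue comparison, grey in neither. The points run along the dotted line of equal values, with Tnc above it at 2.91 in the rescue.

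In experiment 3 each stage was compared with the libraries labelled KO (anestrus). In DE 13 of the 38 genes were higher and 1 lower (13.5% higher and 11.6% lower of 16944 genes tested), in PE 10 and 3 (17.5% and 16.3%), and in E 10 and 2 (8.98% and 8.98%). The medians of the 38 were 0.49, 0.32 and 0.21, each against 0.01 over all genes. All 3 stages share the KO libraries, so their values stand side by side without a test of likeness. Lum, Fn1, Thbs2, Tnc, Col14a1, Fbln1, Col5a2 and Loxl2 were called higher in each stage.

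Lum was at 68.2, 88.6, 91.7 and 84.4 CPM in KO. It was at 340.0, 472, 208 and 405 CPM in DE, 372, 399.6, 351 and 366 in PE, and 169, 212, 444 and 385 in E. All 12 stage libraries were above all KO libraries, by 2.10, 2.16 and 1.86 on the log2 scale (edgeR adjusted p = 0.00036, 0.00025 and 0.00068). Fn1 was at 89.4, 108, 68.8 and 105 CPM in KO. It was at 565, 389, 236 and 579 CPM in DE, 545, 547, 500.1 and 290.1 in PE, and 221, 217, 337 and 339 in E. Again no stage library reached down to KO, with log2 differences of 2.25, 2.34 and 1.59 (edgeR adjusted p = 0.00022, 0.00014 and 0.002).

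Thbs2 was at 19.7, 19.8, 15.4 and 20.7 CPM in KO. It was at 44, 64.5, 60.4 and 45.1 CPM in DE, 64.2, 56.5, 51.9 and 51.6 in PE, and 35, 41.3, 55.4 and 65.7 in E. The stages overlapped with each other and not with KO, and the stages were 2.83-fold, 2.97-fold and 2.61-fold higher (edgeR adjusted p = 0.00016, 9.1e-05 and 0.00023). Its KO values were close to those of experiments 1 (18.1 to 21) and 2 (18.3 to 21.1), although separate experiments were scaled apart. Fbln1 was at 106 to 112 CPM in KO and at 141 to 203 over all stage libraries, with differences of 0.68, 0.68 and 0.64 (edgeR adjusted p = 0.0017, 0.0014 and 0.0024).

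Tnc was at 25.1, 28.9, 23.4 and 37.3 CPM in KO. It was at 822, 66, 342 and 411 CPM in DE, 387, 355, 280.0 and 143 in PE, and 110.2, 733, 174 and 944 in E. Every stage library was above KO, but the values within DE and within E spread widely. The differences were 3.84 ± 0.76, 3.34 ± 0.75 and 4.10 ± 0.77 (edgeR adjusted p = 0.004, 0.0054 and 0.0028). Luteal markers (5 genes, 4 higher in each stage than in KO) summed to 264 to 395 CPM in KO, 241 to 2123 in DE, 618 to 1482 in PE and 571 to 5002 in E. Library orders beside Tnc differed by group. In DE replicate 2 was lowest in both, and in PE both fell from replicate 1 to replicate 4. WT replicate 3 of experiment 1 was lowest of its group in both, at 597 CPM of luteal markers and 65.6 CPM of Tnc. Both values lay within the KO ranges of that experiment (583 to 847 and 57.5 to 105). In Het luteal RNA rose and Tnc fell from replicate 1 to 3. Rescue replicates 3 and 4 held the least Tnc and the most luteal RNA. In E replicate 2 held the most luteal RNA and replicate 4 the most Tnc. The part of luteal RNA in the Tnc values was not tested.

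Col14a1 was at 5.14, 9.83, 6.33 and 16.4 CPM in KO. It was at 58.5, 64.2, 24.1 and 67.4 CPM in DE, 43.3, 49, 41 and 59.1 in PE, and 20.1, 22.4, 37.3 and 41.5 in E. The groups did not overlap with KO (2.51, 2.36 and 1.69; edgeR adjusted p = 0.00079, 0.001 and 0.008). Col5a3, the rarest of the collagen V chains here, was at 2.42, 5.63, 2 and 4.47 CPM in KO and at 17.7, 39.1, 4.8 and 67.5 in DE, so that DE replicate 3 lay within the KO range. It was at 36, 21.6, 23.1 and 23.8 CPM in PE and 7.19, 5.35, 17.3 and 15 in E. It rose by 3.15 ± 0.66 in DE (edgeR adjusted p = 0.0051; 2.50 without DE replicate 4) and by 2.84 in PE (adjusted p = 0.006). Fbln2 rose by 1.94 in both DE and PE (edgeR adjusted p = 0.011 and 0.0085), while in E it was at 14.9, 27, 70.9 and 47.5 CPM against 13.3 to 19.3 in KO and was not called. Lox rose by 0.95 in both DE and E, Tnxb by 1.31 and 1.02, and Col6a1 by 0.59 in DE with overlapping groups. Col5a2 rose by 1.03 to 1.17 and Loxl2 by 0.90 to 1.26 over the stages. Some of these calls ended when 1 library was left out. They were Col5a2 (DE replicates 2 or 4, PE replicate 2, E replicate 4, or KO replicates 1, 3 or, in DE, 4; edgeR adjusted p up to 0.1), Col6a1 in DE (any but DE replicates 2 and 3; up to 0.16) and Lox (DE replicates 2 or 4, E replicate 4, or KO replicate 3; up to 0.076). Tnxb in E ended without E replicates 2 or 4 or any KO library (edgeR adjusted p up to 0.13), and Loxl2 in PE without PE replicates 1 or 2 or KO replicates 1, 3 or 4 (up to 0.12).

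**Figure D4:**
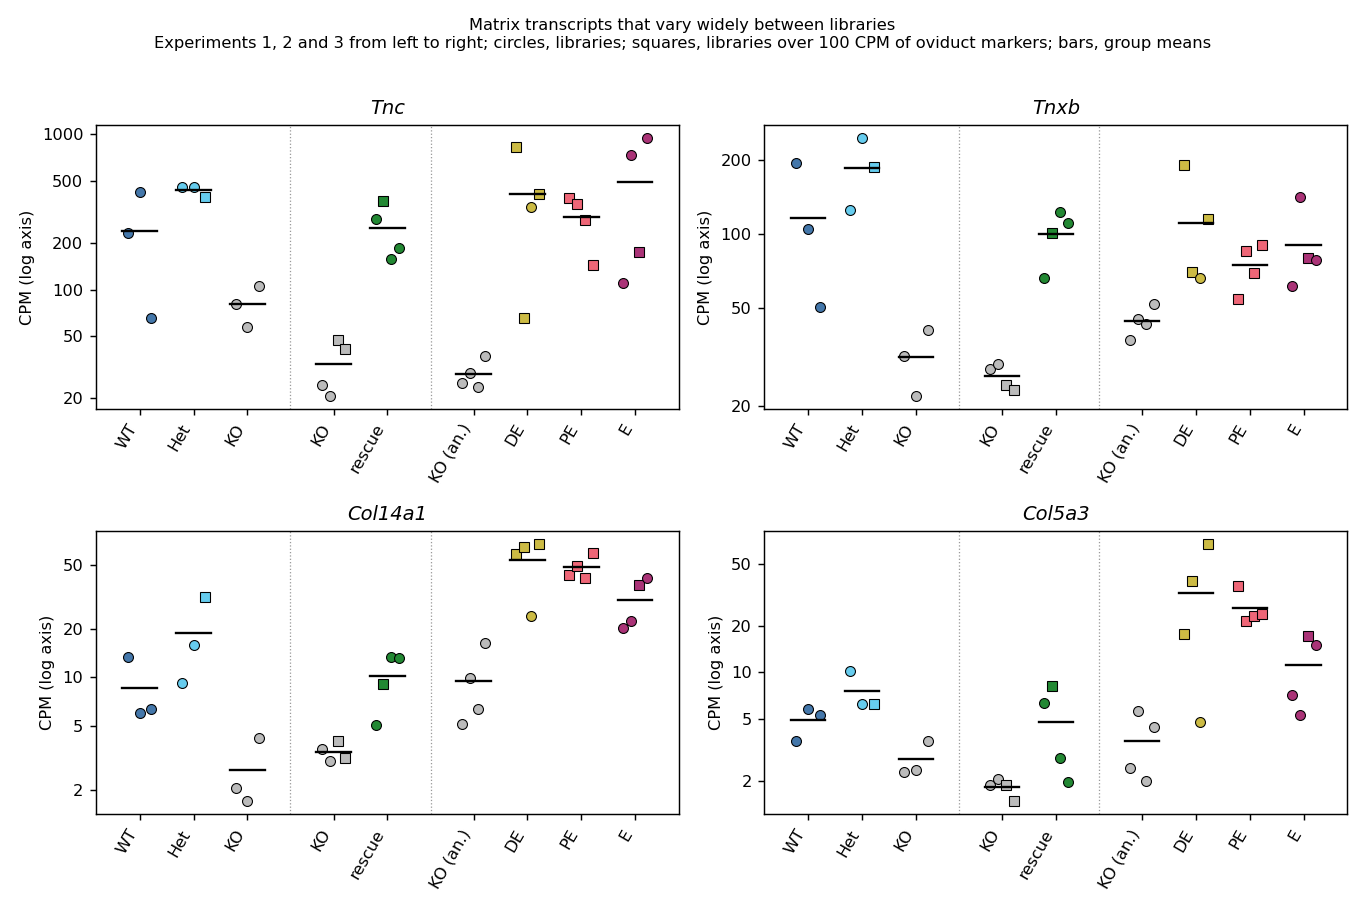
Level of Tnc, Tnxb, Col14a1 and Col5a3 in each library (CPM, log axis), drawn by group and experiment; circles are libraries, squares those over 100 CPM of oviduct markers, and bars group means. Tnc spans 66 to 822 CPM within DE and 110.2 to 944 within E, above 23.4 to 37.3 in KO.

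A smaller set was higher in KO (anestrus). Vcan, the large proteoglycan versican that is abundant in the follicle wall and cumulus, was at 294, 267, 308 and 312 CPM in KO, at 133, 188, 224 and 152 in DE and at 185, 176, 115 and 68.7 in PE. It fell by 0.76 in DE and by 1.11 in PE (edgeR adjusted p = 0.038 and 0.0053), and E, at 188 to 262 CPM, was not called. Nid1 fell by 0.44 in PE and Col18a1 by 0.45, the latter with overlapping groups. Ogn, the small proteoglycan osteoglycin, was at 459, 559, 512 and 609 CPM in KO and 273, 336, 344 and 365 in E (-0.70, edgeR adjusted p = 0.038). Fbln5, an elastic fibre assembly protein, was at 49.4 to 59.6 CPM in KO and 32 to 38.7 in E (-0.61, edgeR adjusted p = 0.02). Most of these calls depended on single libraries: Ogn ended without any 1 of the 8 (edgeR adjusted p up to 0.12), Vcan in DE without any 1 but DE replicate 3 (up to 0.12), and Fbln5 without E replicates 1, 3 or 4 or KO replicates 1 or 4 (up to 0.077). In PE, Col18a1 ended without PE replicates 3 or 4 or KO replicates 2, 3 or 4 (edgeR adjusted p up to 0.12), and Nid1 without PE replicates 1, 3 or 4 or KO replicate 4 (up to 0.068), while Vcan kept its call without each single library.

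Oviduct markers moved with these comparisons. Of 11 markers 10 were higher in DE and 10 in PE than in KO by edgeR, and 0 in E, whose replicates 1, 2 and 4 held 20.7 to 27.5 CPM of the list. Smooth muscle markers (7 genes) summed to 925 to 2020.0 CPM in KO, 1920.2 to 5546 in DE, 2649 to 4290.0 in PE and 1191 to 3154 in E. Without E replicate 3, the one E library rich in oviduct markers, 10 of the 38 genes were higher than in KO and 0 lower. Of the 17226 genes then tested, 9.45% were higher and 6.68% lower. In that fit of E, Lum was at 1.65 (edgeR adjusted p = 0.0012), Fn1 at 1.52 (adjusted p = 0.004), Thbs2 at 1.36 (adjusted p = 0.0005) and Tnc at 4.42 (adjusted p = 0.0016). With the oviduct marker level as a covariate, 6 of the 38 genes were higher in DE (Col14a1, Lum, Fbln1, Fn1, Tnc and Thbs2) and 5 in PE (the same without Tnc), and none was lower. Over all genes the same fit called 4.57% higher and 5.93% lower in DE and 2.87% and 3.73% in PE. All PE libraries (3396 to 5748 CPM) were rich in these markers and all KO libraries (43.3 to 88.7 CPM) poor. Only DE replicate 3 and E replicate 3 were unlike their groups, so this covariate does not fully separate stage from oviduct content. In that fit Lum was at 1.53 in DE and 1.44 in PE, Fn1 at 1.74 and 1.73, and Thbs2 at 1.49 and 1.56, while Fbln2 was at 1.02 and 0.83 and Col5a3 at 1.82 and 1.38, which did not pass. Also not past the threshold were Tnc in PE, at 3.74 (edgeR adjusted p = 0.06) against 3.34 without the covariate, and Vcan in PE, at -0.95 (adjusted p = 0.1). The E comparison called 14 genes with the covariate, with 10.4% of all genes higher and 11.5% lower. Adipocyte markers were also high in single libraries, up to 1251 CPM in DE and 1461 in PE against 23.7 to 266 in KO; their part was not tested.

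Between the stages no gene of the 38 passed in edgeR in PE minus DE, E minus PE or E minus DE, where 0% of all genes were called in either direction. At an unadjusted p under 0.05 there were 0, 5 and 9 of the 38 and 407, 3170 and 1797 of all genes, and DESeq2 called 0 of the 38 in each. Without DE replicate 3 and E replicate 3, the libraries unlike their groups in oviduct markers, edgeR called 8 of the 38 in E minus DE (1 higher and 7 lower) and 5 in E minus PE (1 and 4). Over all genes it then called 3.88% higher and 12.1% lower in E minus DE, and 3.93% and 11.5% in E minus PE. In both, Col5a3, Dcn, Fn1 and Postn were lower in E and Thbs1 higher. Fn1 was at -0.99 against DE (edgeR adjusted p = 0.02) and -0.87 against PE (adjusted p = 0.029). After that removal all DE and PE libraries are rich in oviduct markers and all E libraries poor, so that stage and oviduct content cannot be told apart.

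Several of the most abundant genes of the list were among the 15 that no comparison with KO called. Col1a1 was at 566, 587 and 552 CPM in WT and 473, 622 and 556 in KO of experiment 1, which overlapped (-0.05 ± 0.27, edgeR adjusted p = 0.94). In experiment 3 it was at 472, 569, 366 and 617 CPM in KO and 1026, 1130.0, 474 and 1683 in DE, where only the oviduct-poor replicate 3 lay within the KO range (1.09, edgeR adjusted p = 0.059). Without DE replicate 3 and E replicate 3, Col1a1 was called higher in DE (1.38, edgeR adjusted p = 0.0091) and PE (0.97, adjusted p = 0.037), as was Postn (2.04 and 1.65), and in DE also Col15a1 (0.63) and Col6a2 (0.83). That fit called 21.7% of all genes higher in DE and 22.4% in PE. Col1a2, the partner chain, was at 1097 to 1142 CPM in WT and 1186 to 1407 in KO, and Col4a1, a basement membrane chain, at 1144 to 1182 and 1134 to 1268. Sparc was at 1028 to 1622 CPM in WT and 1658 to 1832 in KO. The others were Col5a1, Col15a1, Col6a2, Col6a3, Col12a1, Dcn, Fmod, Eln (elastin), Postn, Thbs1 and Pcolce.

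**Figure D5:**
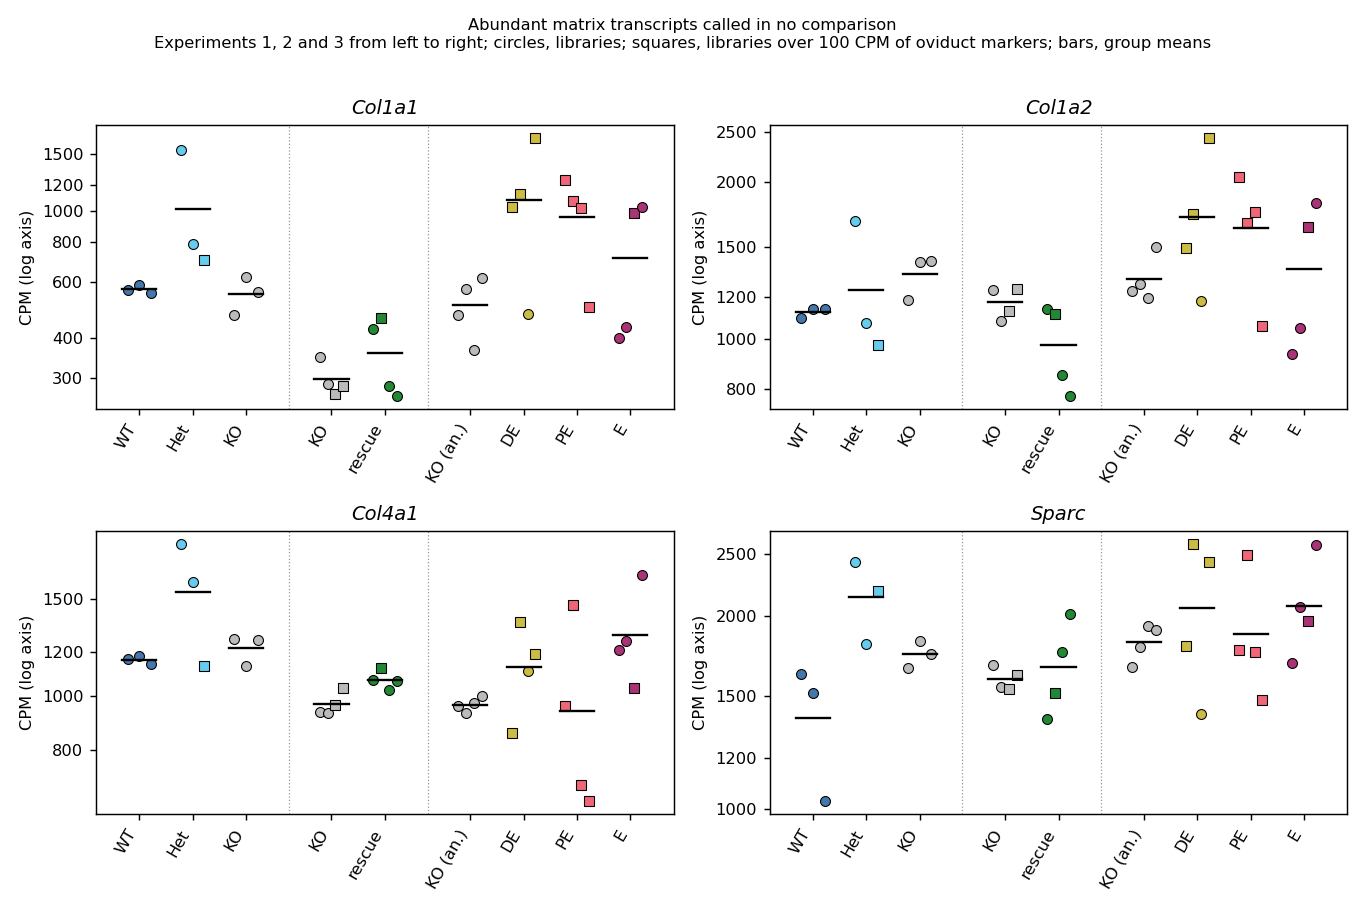
Level of Col1a1, Col1a2, Col4a1 and Sparc in each library (CPM, log axis) by group and experiment; circles are libraries, squares those over 100 CPM of oviduct markers, and bars group means. KO and WT of experiment 1 overlap for Col1a1 (473 to 622 and 552 to 587 CPM), and DE spans 474 to 1683.

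Ratios within a library showed how unevenly members moved. Fn1 over Col1a2 was 0.0408 to 0.0955 in all KO libraries and 0.158 to 0.455 in all others. Col1a1 over Col1a2 was 0.228 to 0.281 in KO and 0.333 to 0.413 in the rescue, and in experiment 1 0.395 to 0.443 in KO and 0.483 to 0.516 in WT. In experiment 3 the same ratio was 0.305 to 0.446 in KO, which overlapped DE (0.401 to 0.693) and E (0.413 to 0.596) but not PE (0.471 to 0.64). Col4a1 over Col4a2, chains of one protein whose genes start 21 bases apart head to head, varied little within a group. In experiment 1 it was 1.55 to 1.6 in WT, 1.52 to 1.56 in Het and 1.69 to 1.71 in KO. In experiment 2 it was 2 to 2.14 in KO and 1.86 to 1.99 in the rescue, so that KO was higher without overlap in both. In experiment 3 KO (2.01 to 2.02) lay above DE (1.86 to 1.99) and overlapped PE (1.82 to 2.02) and E (1.91 to 2.07). As the strand setting is not given in the sources used here, reads where exons on opposite strands overlap may not be assigned to the right gene. By whole gene spans, introns included, 24 of the 38 genes overlap another annotated gene on either strand. Among them are Fn1, Tnc, Tnxb, Col14a1, Col5a2, Col5a3, Fbn1, Nid1, Vcan and Loxl2. How much of these overlaps lies in exons was not examined. The summed level of 7 stroma markers was higher in KO, at 1084 to 1226 CPM against 753 to 836 in WT, 1406 to 1493 against 685 to 815 in the rescue, and 1334 to 1580.3 against 671 to 926 over the stages, but the markers went both ways. Against WT 4 were higher in KO and 2 lower, Pdgfrb (-0.86, edgeR adjusted p = 0.019) and Thy1 (-0.67, adjusted p = 0.032). In the rescue 2 were higher than in KO, again Pdgfrb (0.80) and Thy1 (0.83), and 3 lower. Pdgfra alone was at 741 to 832 CPM in KO of experiment 2, where the sum was 1406 to 1493. In the rescue it was at 180.1 to 252 CPM, where the sum was 685 to 815.

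Genes of the same pathway that are not among the 38 had calls in both directions, as did all genes. Over all genes 4.53% were higher and 3.34% lower in KO than in WT, and 15.8% higher and 16.2% lower in the rescue. In DE, PE and E 13.5%, 17.5% and 8.98% were higher and 11.6%, 16.3% and 8.98% lower. The lists here and in the next paragraph were not tested against these shares. Of 28 genes of collagen synthesis and secretion, 1 was higher and 0 lower in KO than in WT, and the rescue had 5 higher and 6 lower than KO. The prolyl hydroxylase gene P3h2 was higher in KO (0.69 ± 0.16, edgeR adjusted p = 0.034) and lower in the rescue (-0.60 ± 0.12, adjusted p = 0.006). In DE, PE and E this list had 1, 1 and 1 higher and 2, 3 and 1 lower. Of 18 further basement membrane genes 4 were higher and 2 lower in KO than in WT, and 3 higher and 9 lower in the rescue. The collagen IV chain Col4a4 was higher in KO (1.59 ± 0.20, edgeR adjusted p = 0.0032), while the laminin chain gene Lama4 was lower (-1.36 ± 0.18, adjusted p = 0.004). In the rescue Lamc3 (-1.89 ± 0.08), Col4a4 (-1.65 ± 0.08) and Col4a3 (-1.90 ± 0.12) fell. Over the stages 3, 4 and 2 were higher and 7, 7 and 6 lower, with Col4a3 at -2.55, -2.85 and -2.65 and Lama4 at 1.27, 1.28 and 1.13.

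Of 19 matrix receptor genes, 18 of them tested in experiments 1 and 2, 0 were higher and 4 lower in KO than in WT, among them the hyaluronan receptor gene Cd44 (-1.34 ± 0.16, edgeR adjusted p = 0.0025) and the collagen receptor kinase gene Ddr2 (-0.75, adjusted p = 0.019). In the rescue 8 were higher and 6 lower, with the integrin genes Itga9 at 1.03, Itgb3 at 0.68 and Itga11 at 1.06. Over the stages 5, 5 and 6 were higher and 1, 3 and 1 lower, with Cd44 at 1.78 in DE and 1.88 in PE. Of 17 genes of TGF-beta signalling, a pathway that drives matrix synthesis in many tissues, 1 was higher and 2 lower in KO than in WT: the receptor genes Tgfbr1 (-1.15 ± 0.20, edgeR adjusted p = 0.012) and Tgfbr2 (-0.62, adjusted p = 0.016) were lower and Ltbp2 higher (0.94). In the rescue 3 were higher and 5 lower, with Ltbp1, which encodes a latent TGF-beta binding protein, at 3.25 ± 0.29 and Ltbp2 at -1.07. Over the stages 2, 2 and 1 were higher and 6, 6 and 5 lower. Ltbp2 was at -1.63 in DE and -1.91 in PE, and Ltbp1 at 2.38 in DE and 2.37 in E.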

How the data were processed

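The authors made and deposited one table of estimated counts per gene for 33 libraries of mouse ovary RNA. Per the submitters' processing notes, Salmon, DESeq2 and GRCm38 were used; versions and strand setting: not given in the sources used here. Counts were rounded, and 54094 identifiers were matched to GENCODE M21 symbols. Each experiment had its own edgeR 4.0.16 model (R 4.3.3; TMM, filterByExpr by group, robust quasi-likelihood test), adjusted by Benjamini-Hochberg over all genes tested, with a threshold of 0.05. CPM use TMM-scaled library sizes. All 38 genes could be named, and of other pathway genes up to 3 called per list and comparison with the smallest p. Members and lists were chosen with earlier results of these data known. On simulated data, 46% of genes changed 2-fold and 77% changed 4-fold were recovered in KO minus WT. All 45 pairs of libraries within a group differed by more than sampling noise (lowest chi-square over its degrees of freedom, 5.65). Alternatives were DESeq2 1.42.0, other size factors, no filter, only the groups compared, a replicate block and leaving out each library.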

Additional observations from a re-analysis of the deposited data

Results flagged for a closer look

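In groups of 4 libraries, a library was singled out where its gap to the nearest other, over the range of the group, was above the critical value of Dixon's test. This held for 10 of 228 groups of 4, and chance gives about 1 in 20. In KO of experiment 2, replicate 1 was highest for Dcn (612 CPM, others 457 to 465) and Vcan (318, others 230.4 to 244), and replicate 2 for Col18a1 (213, others 171 to 176). Rescue replicate 1 was lowest for Col18a1 (119.5, others 136 to 138). In PE, replicate 1 was highest for Eln (128, others 65.6 to 73.3) and Col5a3 (36, others 21.6 to 23.8), and replicate 2 for Bgn (637, others 368 to 411). In DE, replicate 3 was lowest for Postn (51, others 293 to 314). In E, replicate 4 was highest for Loxl2 (409, others 194 to 209) and Fbn1 (243, others 173 to 178).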

How the results depend on the processing

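No called gene changed direction under any alternative run. Called under all of them were Lum, Fbln2, Fn1 and Thbs2 in KO minus WT and in KO minus Het, 10 of 19 genes in the rescue, and 6 of 14, 5 of 13 and 7 of 12 genes in DE, PE and E. The number of the 38 called in KO minus WT was 8 with DESeq2 and 8 with only those 2 groups fitted, against 4. In Het minus WT it was 3 with DESeq2 and 1 with no filter, against 0. Leaving out single libraries gave 4 to 19 in KO minus Het, 7 to 11 in E minus KO and 0 to 2 in E minus PE. The 7 came without E replicate 4, where 7.71% of all genes were higher and 5.07% lower. The 2 came without PE replicate 2, where these shares were 1.15% and 0.47%. Without the 3 libraries over 100 CPM of oviduct markers the rescue had 10, and with the oviduct covariate DE had 6 and PE 5; both were added after seeing the data. Without DE replicate 3 and E replicate 3 there were 5 in E minus PE and 8 in E minus DE. The cause of these moves was not tested. Over all genes, DESeq2 called 1230 higher and 1149 lower in KO minus WT, against 780 and 575. Between libraries of the same replicate number, deviations from group means correlated at -0.129 to 0.122, -0.175 to 0.11 and -0.748 to 0.231 in experiments 1 to 3. With so few libraries per group, these correlations cannot decide whether replicate numbers pair the samples. With the replicate block the counts were 0 higher and 4 lower in KO minus WT, 1 and 8 in KO minus Het, 12 and 5 in the rescue, and 12 and 0, 10 and 3, and 9 and 1 in DE, PE and E.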
